A study of Homo sapiens with 2 samples.

Results

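The probes described here are the 20351 oligonucleotides of a human lncRNA expression array whose names start with A_24_P (4702 probes), A_32_P (1758 probes) or A_33_P (13891 probes), out of 77162 non-control probes. They were chosen by the start of their names, with earlier results of these data known, and each is 60 bases long. They were printed in 25141 of 175556 non-control spots, since 17978 of them had 1 spot, 2362 had 3 spots and 11, all of the A_24_P class, had 7 spots. The array was hybridized with Cy3-labelled cRNA from LNCaP cells, an androgen-sensitive line from a lymph node metastasis of prostate cancer. Both cultures had been kept for 72 h in phenol red-free medium with charcoal-stripped serum, which removes steroids, and were taken at 0 h or at 2 h of 10 nM dihydrotestosterone (DHT), the main androgen of the prostate. The labels give 5% of this serum, while the methods of the study name another percentage. Each condition was 1 array, so that no difference below has a replicate check and none was tested. In such bulk samples, fewer cells of a type and less RNA per cell cannot be told apart.

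DHT binds the androgen receptor, a transcription factor, so that the first hours of exposure change the RNAs of direct targets and of those transcripts that turn over quickly. A probe reads whatever labelled cRNA pairs with its 60 bases. Its signal therefore depends on the RNA, on the base composition of the probe, and on how many other RNAs hold the same letters. Pairs of G and C bind more firmly than pairs of A and T, and the GC share of a probe is a common covariate of array signal.

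The files used here give no gene names for the members, and the platform's annotation was not used here. A table of the study names 42 of them, and their sequences show what such a probe looks like. Capitals mark the letters AATAAA, the commonest polyadenylation signal, where a probe holds them. The first 5 probes were higher at 2 h and the last 7 were lower.
MALAT1 (A_24_P873659): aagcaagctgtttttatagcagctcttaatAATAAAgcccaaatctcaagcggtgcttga
LOC100287314 (A_33_P3518572): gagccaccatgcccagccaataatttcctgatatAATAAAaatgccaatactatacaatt
TUG1 (A_33_P3371270): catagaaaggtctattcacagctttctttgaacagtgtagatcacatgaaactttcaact
MIR17HG (A_33_P3313622): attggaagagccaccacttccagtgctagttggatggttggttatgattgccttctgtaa
LOC145837 (A_32_P46594): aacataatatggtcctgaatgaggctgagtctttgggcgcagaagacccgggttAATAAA
LINC00487 (A_33_P3325643): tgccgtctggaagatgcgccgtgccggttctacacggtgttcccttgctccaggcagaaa
LOC439990 (A_33_P3824237): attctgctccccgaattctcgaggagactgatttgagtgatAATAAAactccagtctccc
KIRREL3-AS3 (A_32_P389770): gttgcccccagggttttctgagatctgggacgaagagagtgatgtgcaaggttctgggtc
TSPEAR-AS1 (A_33_P3328365): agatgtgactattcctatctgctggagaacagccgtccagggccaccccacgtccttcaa
MEG3 (A_33_P3255434): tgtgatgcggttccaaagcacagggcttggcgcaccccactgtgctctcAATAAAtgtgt
SMCR2 (A_33_P3877739): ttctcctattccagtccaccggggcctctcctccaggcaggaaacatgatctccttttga
PYY2 (A_24_P233078): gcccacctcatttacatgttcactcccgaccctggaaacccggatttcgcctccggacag

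Other members carry stretches that recur in many transcripts. These are shown because the Alu, zinc finger and histone letters went with the size and the direction of the difference. Immunoglobulin and olfactory receptor letters are shown beside them, and MIR letters are not shown. Words of 14 letters held by at least 5 member sequences on either strand were searched, leaving out simple repeats. They were taken in order of the number of member sequences that held them. A word was kept only where at least 5 of these sequences held no word kept before. In all, 14 words were kept and 88 members held at least 1 of them. Members that hold only other words of the same repeats or gene families are not in the counts below. Each word was held by 5 to 17 of the 77162 array probes on either strand. From general knowledge, 5 of the words are parts of the Alu element, the most numerous short repeat of primate genomes, 4 recur in the coding sequence of C2H2 zinc finger genes, 1 is part of the stem-loop that ends replication-dependent histone mRNAs, 2 lie in immunoglobulin V genes, 1 lies in olfactory receptor genes, and 1 is part of the older MIR repeat. The following lines give 30 bases of an example probe with the word in capitals, which is a match of letters and not a gene name. The first line holds Alu letters backward, that is, as the reverse complement of the element's own direction, and the next line holds them forward. They are followed by 4 lines of the zinc finger kind, 2 of the histone stem-loop kind, 1 of the immunoglobulin kind and 1 of the olfactory receptor kind.
A_33_P3544887: tcaccattTTGGCCAGGCTGGTcacgaact
A_33_P3296852: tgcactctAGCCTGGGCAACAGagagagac
A_32_P144908: tacaaatgTGAAGAATGTGGCAaagctttt
A_33_P3418611: cacaaaacAATTCATACTGGAGagaaaccc
A_33_P3312638: aaccttagagtACATCAGAGAATTCatact
A_33_P3267740: gaatgtGGGAAAGCCTTCAGtgttaattca
A_33_P3257678: cgtatccaAAAGGCTCTTTTCAgagccacc
A_33_P3404989: acatacccAAAGGCTCTTTTCAgagccacc
A_33_P3331174: ttgtatcttcAAATGAACAGCCTGagagcc
A_33_P3264193: gcctgagaAACAAGGATGTGAAggcagctc

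A spot was counted as detected where the scanner software flagged it both as positive and significant and as well above background. At 0 h, 30.2% of member spots were detected (exact binomial 95% interval 29.6 to 30.8), and at 2 h 49.4% (48.8 to 50.02). These intervals cover counting error over spots only. The A_24_P spots were detected most often, at 34.4% and 56.8%, against 28.2% and 48.4% of A_32_P spots and 29.1% and 47.2% of A_33_P spots. Over all non-control spots the shares were 21.9% and 37.4%. Among the other classes, A_23_P spots were detected more often than any member class, at 39.96% and 62.3%, and oebiotech spots less often, at 19.2% and 34.6%. Detection was set on each array against its own background, and the 2 h array was brighter as a whole: before any scaling, the median difference over all array probes detected on at least 1 array was 1.53 (log2). The 5 spike-in probes that stood well above background differed by a mean of -0.37, 2 h minus 0 h, also before scaling. The part of overall brightness in the higher detection at 2 h was not tested.

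By probe, counting one as detected where at least a share of 0.5 of its spots was, 6397 members (31.4%) were detected at 0 h and 10470 (51.4%) at 2 h, beside 25.2% and 41.9% of all array probes. Both arrays detected 6366 members, while 4104 were seen at 2 h only, 31 at 0 h only and 9850 on neither. For 2 members a value was missing on 1 array because their spots there were flagged as outliers, and 1 of these was otherwise detected, which left 10500 members for the comparison. After quantile normalization over all non-control spots, the median level of detected members on the log2 scale was 8.46 at 0 h, with quartiles 7.42 and 9.92, and 7.26 at 2 h, with quartiles 5.98 and 8.94. The 2 h set includes many dim probes that were not detected at 0 h. Over the 6366 members on both arrays the median levels were 8.47 and 8.48, and levels of the same probe on the 2 arrays correlated with r = 0.91 across probes, which are not replicates.

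The brightest members were close to the top of the scale on both arrays. A_33_P3346552 had 18.86 at 0 h and 18.75 at 2 h, and A_33_P3321507 had 18.89 and 18.71. No member spot was saturated. The GC shares of the 10 brightest members ran from 43.3% to 81.7%, and all 10 were of the A_33_P class.

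Spots of the same probe on 1 array agreed closely. Over the 569 three-spot members detected on both arrays, the median SD between spots was 0.14 at 0 h and 0.11 at 2 h on the log2 scale. It was wider for dim probes, at 0.24 and 0.19 for mean levels from 5 to below 7, than for probes of 13 or more, at 0.09 and 0.08. Of the 509 such members with all 3 spots usable, 68 rose by 2-fold or more, and in 68 of these the spots of the 2 arrays did not overlap. Another 108 were at least 2-fold lower, without overlap of the spots in 103. Of the 333 that differed by less than 2-fold, 229 had spots that did not overlap. These counts were not taken over all array probes, so that they are not read as a trait of the members. This spread is technical and within an array. It does not stand for the spread between cultures.

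Another 11 probes had 7 spots each. Of these, 5 were detected in all 7 spots of both arrays and 6 in none. A_24_P274270 had 8.24 ± 0.09 at 0 h and 9.04 ± 0.13 at 2 h (SD, n = 7 spots), and A_24_P343233 had 8.14 ± 0.20 and 7.70 ± 0.08. A_24_P81841 went from 6.75 ± 0.18 to 7.31 ± 0.16. A_24_P418044, at 10.10 and 10.24, and A_24_P76666, at 7.84 and 7.75, differed by 0.14 and -0.09. None of the 5 reached 2-fold.

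A set of 4 single-spot A_33_P probes with the same 60 bases, 80% of them G or C, gives the spread of single spots directly. Their levels at 0 h were 9.19, 9.41, 8.88 and 9.42, and at 2 h 8.32, 8.02, 8.54 and 8.36. All 4 were lower at 2 h, but the differences ran from -1.39 to -0.34, so that the same sequence was on either side of the 2-fold line depending on the spot. Different probes that overlap were also compared. Of 1171 same-strand pairs that share at least 30 bases and hold at least 1 member, 275 had both probes detected on both arrays. The differences of the 2 probes in such a pair lay a median of 0.17 apart, and 0 of the 275 pairs had one probe 2-fold higher and the other 2-fold lower. The 223 such pairs of a member with an oebiotech probe had a median gap of -0.03, member minus partner. On opposite strands, where the 2 probes read different RNAs, 22 pairs were detected throughout. Their differences lay 0.41 apart at the median, and their levels at 0 h lay 1.34 apart, against 0.31 on the same strand.

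In the comparison of 2 h with 0 h, 2994 of 10500 members (28.5%) had a level at least 2-fold higher after DHT and 1216 (11.6%) at least 2-fold lower. The same shares over all 32423 array probes were 27.9% and 13.7%. With members detected on both arrays only, 830 of 6366 (13.04%) were higher and 1096 (17.2%) lower, beside 12.7% and 20.4% of all array probes. Most of the 2994 higher members were thus not detected at 0 h. For a lower bound, undetected levels below that of the dimmest detected probe, 5.51 at 0 h and 4.51 at 2 h, were raised to it. Undetected levels above it kept their own value. By these bounds the counts were 1603 higher and 1127 lower, against a background of 15.1% and 12.5% of array probes. The shares of higher members lay near the background in each version, and those of lower members somewhat below it. Many probes sat close to the line: 249 members were higher by 1.0 to below 1.1 on the log2 scale and 242 by 0.9 to below 1.0, and the corresponding counts of lower members were 202 and 265.

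The 3 name classes differed in their median. Over probes detected on at least 1 array it was 0.43 for A_24_P (n = 2779), 0.52 for A_32_P (n = 868) and 0.04 for A_33_P (n = 6853) on the log2 scale, and 0.16 over all array probes. Over probes detected on both arrays the medians were -0.01, 0.15 and -0.34, and -0.30 over all. A_33_P was lowest under both filters, and A_24_P and A_33_P changed sign between them while A_32_P did not. With no detection filter the medians were 0.078, 0.045 and -0.025, which put A_24_P above A_32_P. The 0.04 of A_33_P fell below 0 under some other settings. It was -0.22 with the 75th percentile of every spot as the scale and -0.014 in the authors' values. All 3 medians were above 1 without scaling or on the spike-in scale. At least 2-fold lower were 19.9% of A_33_P probes on both arrays, 12.1% of A_24_P and 11.3% of A_32_P, beside 20.4% of all array probes. For A_23_P probes the share was 13.4% and for oebiotech probes 25.2%.

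The balance of higher and lower probes was also taken by signal level. Among the 928 members with a mean level from 5 to below 7 on both arrays, 0 were 2-fold higher and 379 (40.8%) 2-fold lower, beside 0.26% and 47.9% of the other array probes of that level. In this dimmest class the lowest detected levels, 5.51 at 0 h and 4.51 at 2 h, leave less room for a rise than for a fall, so that nothing is read from its balance. From a mean of 7 to below 9, 15.2% of 2961 members were higher and 15.7% lower, beside 14.9% and 19.2% of the other array probes. At 13 or more (393 members) 12.98% were higher and 3.82% lower, beside 14.1% and 3.34% of the other array probes. A_32_P members of 13 or more had a median difference of 0.32 (n = 35), against -0.0013 for A_24_P (n = 80) and -0.34 for A_33_P (n = 278).

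GC share went with both detection and the difference. Of 582 members with under 35% GC, 7.39% were detected at 0 h and 18.2% at 2 h. Of 587 members with 60% GC or more, 76.8% and 87.1% were. Between these ends detection was higher at every step, from 15.7% and 38.3% at 35 to below 40% GC to 53.0% and 68.2% at 55 to below 60%. At 35 to below 40% GC, which holds 7383 of the 20351 members, 1676 were detected at 2 h only and 1150 on both arrays, while of the 587 at 60% or more the counts were 63 and 448.

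The difference ran the other way. Over members on both arrays the median was 0.32 at 35 to below 40% GC, 0.22 at 40 to below 45%, -0.06 at 45 to below 50%, -0.44 at 50 to below 55%, -0.55 at 55 to below 60% and -0.59 at 60% or more. The share at least 2-fold higher went from 23.7% at 35 to below 40% to 3.35% at 60% or more, and the share 2-fold lower from 13.3% to 25.9%. The other array probes showed the same trend, from 19.4% to 1.26% higher and from 18.1% to 34.4% lower. Below 35%, the 43 members on both arrays had a median of -0.01, so that the contrast of the most GC-rich with the most AT-rich class was -0.58. Across the 6366 members the correlation of GC share with the difference was r = -0.30, as a description. The A_24_P class gave r = -0.42, A_32_P -0.30 and A_33_P -0.24. For the other classes of the array, over 12938 probes, it was -0.25.

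The GC pattern was present at each level of signal. For mean levels of 7 to below 9 the medians were 0.57 at 35 to below 40% GC (n = 616) and -0.87 at 60% or more (n = 120), for 9 to below 11 they were 0.48 (n = 264) and -0.62 (n = 99), and for 11 to below 13 they were 0.21 (n = 74) and -0.49 (n = 66). At 13 or more the medians were 0.01 (n = 25) and -0.36 (n = 96). The signs belong to the quantile scale: on the spike-in scale the medians of all 7 GC classes were above 0, from 0.56 at 60% or more to 1.94 at 35 to below 40%, and the gap between these 2 classes was -1.38 in place of -0.91. GC share and the kind of transcript probed cannot be told apart here, and the part of GC share in the differences was not tested.

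The medians of the name classes lay further apart below 50% GC than from 50 to below 60%. Below 35% the medians rested on few probes, at -0.0096 for A_24_P (n = 21), 0.57 for A_32_P (n = 6) and -0.10 for A_33_P (n = 16). At 35 to below 40% GC the median difference was 0.59 for A_24_P (n = 347), 0.50 for A_32_P (n = 124) and -0.01 for A_33_P (n = 679). At 40 to below 45% it was 0.37, 0.66 and -0.03, and at 45 to below 50% 0.13, 0.11 and -0.16. From 50 to below 60% GC the 3 classes lay close together, at -0.45, -0.37 and -0.45 for 50 to below 55% and at -0.47, -0.57 and -0.58 for 55 to below 60%. At 60% or more they had -0.59, -0.80 and -0.59, with 9 probes in A_32_P.

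The letters AATAAA were also unevenly spread over the classes. They were held by 2066 members, which were 12.4% of A_33_P, 6.14% of A_32_P and 4.91% of A_24_P probes, and by 7.77% of all array probes. Cleavage and polyadenylation of most mRNAs follow shortly after this signal, so that a probe that holds it near its 3′ end often lies at the very end of a transcript. Among members on both arrays the median difference was -0.53 with the letters (n = 572) and -0.20 without (n = 5794), and both medians were above 0, at 1.04 and 1.40, on the spike-in scale and without scaling, at 0.67 and 1.02. The gap of -0.34 was -0.36 under each constant shift and -0.25 with the normexp alternative. It was -0.58 after the median of the other classes in the same GC class was subtracted. By class, probes with the letters had medians of 0.24 in A_24_P (n = 60), -0.27 in A_32_P (n = 33) and -0.60 in A_33_P (n = 479). Those without had -0.01, 0.16 and -0.30 in the same order, so that in A_24_P the probes with the letters were the higher ones. Of those with the letters, 6.64% were 2-fold higher and 22.7% 2-fold lower, near the 6.88% and 25.7% of all array probes with AATAAA. Since AATAAA makes a probe AT-rich, this ran against the GC pattern. At 35 to below 40% GC the medians were -0.32 with the letters (n = 181) and 0.42 without (n = 969), and at 40 to below 45% -0.54 (n = 122) and 0.30 (n = 886). In A_33_P probes of 35 to below 40% GC the median was -0.55 with the letters (n = 137) and 0.22 without (n = 542), so that without them this class came nearer to the 0.57 of A_24_P and the 0.52 of A_32_P. The 30 A_24_P probes of that GC class with the letters had 0.73.

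The place of the letters went with the difference as well. Where AATAAA last started late in the probe, at base 37 to 55, the median difference was -0.58 (n = 423), at base 19 to 36 it was -0.44 (n = 117), and at base 1 to 18 it was 0.33 (n = 32). Base 1 is the 5′ end. The reverse complement TTTATT, held by 820 members and searched as a control of base composition, gave -0.18 (n = 212) against -0.22 without it over all GC shares. From 35 to below 50% GC, probes with TTTATT were lower too, at 0.03 against 0.36 for 35 to below 40% GC, at -0.12 against 0.23 for 40 to below 45% and at -0.37 against -0.05 for 45 to below 50%, a smaller gap than that of AATAAA in each. Below 35% GC the few probes with TTTATT were higher, at 0.45 (n = 7) against -0.03, and at 60% GC or more those with AATAAA were higher, at -0.36 (n = 6) against -0.60. In the other classes of the array, probes with AATAAA had a median of -0.55 (n = 765) and those without -0.32 (n = 12173).

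The probes with Alu letters split by direction. Of 15 members with backward letters, 14 were detected on both arrays. All 14 rose by at least 2-fold, where 12.7% of array probes on both arrays did. Their differences ran from 1.11 to 2.61 with a median of 1.76. Of 17 members with forward letters, 16 were detected on both arrays, with differences from -0.88 to 0.95 and a median of 0.19, and 0 of these 16 reached 2-fold. On the spike-in scale 12 of the 16 were 2-fold higher and without scaling 7, while with the 75th percentile of every spot 5 were 2-fold lower. These 14 and 16 probes did not overlap on the quantile scale, but the 15th backward member, detected at 2 h only, differed by 0.72, inside the forward range. Under the constant shifts the sets overlapped, for example with a lowest backward value of 0.38 and a highest forward value of 0.82 on the 75th percentile of spots above background. For example, the backward probes A_33_P3544887 and A_33_P3327818 went from 13.85 to 15.61 and from 13.19 to 15.80. The forward probe A_33_P3296852 went from 17.00 to 16.24, while the forward probe A_33_P3388491 went from 16.64 to 17.15.

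Most backward probes were bright, while the forward ones ranged widely. Of members with a mean level of 13 or more, 12 held backward Alu letters, and all 12 were 2-fold higher. The 7 forward ones lay between -0.76 and 0.85. The other members of that level without the kept backward words numbered 381, forward ones included, of which 39 were 2-fold higher. The 3 probes of other classes with backward letters were also higher, by 1.59 to 1.71. The call of the backward set depended on the scaling: when each array was scaled on the 75th percentile of its spots above background, its median was 0.81 and 3 of 14 reached 2-fold, and with that percentile taken over every spot it was 0.26 with 1 of 14 and a lowest value of -0.17. Its gap to the forward set was 1.57 with quantile normalization and 1.09 under every constant shift. Such probes can pair with RNAs from many loci, so that their level belongs to no single gene.

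The zinc finger kind had 6 members detected on both arrays. All 6 rose by at least 2-fold, where 12.7% of array probes on both arrays did. Their differences ran from 1.12 to 2.42 with a median of 1.97. The median was above 1 under each scaling tried, from 1.27 to 3.30. C2H2 zinc finger genes form the largest family of human transcription factors, and the letters lie in the finger and in the linker between fingers. A_32_P46191 went from 10.36 to 12.78, A_32_P144908 from 10.50 to 12.81, A_24_P19268 from 9.93 to 11.99, A_33_P3418611 from 7.53 to 9.40, A_32_P68148 from 8.37 to 9.99 and A_33_P3273266 from 6.92 to 8.04. Another 12 of the 25 members were detected at 2 h only and 7 on neither array. Of these 12, 5 were at least 2-fold higher also by the lower bound, where 15.1% of array probes detected on at least 1 array were. That share includes probes on both arrays, so that it is not a like base for probes detected at 2 h only. An example was A_33_P3312638, from 5.94 to 7.48. The 13 such probes of other classes included 7 on both arrays, all higher, by 1.17 to 2.24. Probes that share these letters may read several genes at the same time, and all of these 25 lay between 35% and 45% GC.

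The histone stem-loop kind went the other way. Replication-dependent histone mRNAs end in this stem-loop in place of a poly(A) tail and are made in S phase. Of its 6 members, 5 were detected on both arrays, and 4 of the 5 were lower at 2 h by at least 2-fold, where 20.4% of array probes on both arrays were. On the spike-in scale 1 of the 5 was, and without scaling 2. A_33_P3257678 went from 13.77 to 11.77, A_33_P3404989 from 11.56 to 9.46, A_33_P3360216 from 10.54 to 8.49, A_33_P3229335 from 9.36 to 7.89 and A_33_P3253214 from 9.84 to 9.07. The median was -2.002. The 2 probes of other classes with the word had -0.94 and -0.79. The median stayed below 0 under each scaling tried, and was nearest to 0, at -0.58, under a shift to the spike-ins, where the whole array moved up to a median of 1.31 and 1 of the 5 differed by 0.74.

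The immunoglobulin and olfactory receptor letters were rarely detected, where 9850 of all 20351 members were detected on neither array. Of 11 members of the immunoglobulin kind, 9 were detected on neither array, and of 6 members of the olfactory receptor kind, 0 were detected on either. The exceptions were A_33_P3257486, from 7.996 to 6.83 on both arrays, and A_33_P3372647, detected at 2 h only with 6.10 and 5.35. The MIR word was held by 8 members, 2 of them on both arrays, at -0.29 and -0.17. A_33_P3395971 was detected at 0 h only, with 7.11 and 4.47, and A_33_P3421748 at 2 h only, with 4.73 and 6.84, so that these 2 differed in opposite directions.

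Sharing letters in general went with a higher difference. The 14913 members in which no stretch of 16 bases occurred in another array probe, on either strand, had a median of -0.25 over the 4640 on both arrays. It was -0.16 where 2 to 4 array probes held the same stretch (n = 1612), 0.51 for 5 to 9 (n = 96) and 0.98 for 10 or more (n = 18). In the last class 8 of 18 were 2-fold higher and 0 lower, beside 12.7% and 20.4% of all array probes on both arrays.

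The 42 members that the study's list pairs with a symbol stand for 41 transcripts, mostly long noncoding RNAs. The list was drawn up from these arrays by the size of the change, so that their directions are no independent evidence. All had 3 spots. Both arrays detected 17 of them, 6 at least 2-fold higher and 11 lower. Another 21 were seen at 2 h only and 4 on neither array. The 6 higher ones had a median GC share of 45% and the 11 lower ones of 53.3%.

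MALAT1, an abundant nuclear RNA of speckles, had the largest rise of a named probe on both arrays, from 8.69 ± 0.09 to 12.45 ± 0.14 (SD, n = 3 spots). TUG1 went from 5.58 to 7.69 and was detected at 2 h only. MIR17HG, the host transcript of the miR-17-92 microRNAs, went from 7.03 ± 0.19 to 8.57 ± 0.02. LOC100287314 went from 10.54 to 12.96, LOC100288069 from 8.21 to 9.82 and LOC145837 from 6.90 to 8.18. For each of these named probes detected at both times, the spots of the 2 arrays did not overlap. The same held for all 68 three-spot members with usable spots that were 2-fold higher on both arrays. Since the named probes were listed for their change on these arrays, it adds no support. The probe of ST7-OT4 on chromosome 7, named in the study's list of its largest changes, was not detected at 0 h, at 3.30, and had 8.07 at 2 h. This is a rise of at least 2.56 on the log2 scale against the dimmest detected level.

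Among the named falls, LINC00487 went from 7.23 ± 0.50 to 5.27 ± 0.44, LOC439990 from 7.12 to 5.20, KIRREL3-AS3 from 6.81 to 5.08 and TSPEAR-AS1 from 9.68 ± 0.07 to 8.03 ± 0.36. LOC645249 had 7.37 and 5.87. MEG3, an imprinted noncoding RNA, went from 7.82 ± 0.15 to 6.32 ± 0.04, SMCR2 from 11.25 to 9.83 and DSCR9 from 8.42 to 7.16. PYY2 was the brightest of these, from 12.15 ± 0.03 to 10.77 ± 0.10. Its probe matched chr17:28227882-28227941 (GRCh38.p14, plus strand), before the start of LOC105371710 and antisense to it. The 2 probes of FLJ10661 did not move together: A_33_P3421203 went from 7.86 to 6.62, while A_33_P3421200 was detected at 2 h only, from 4.27 to 6.13. Under a shift to the spike-ins, DSCR9, MEG3, LOC645249, KIRREL3-AS3 and A_33_P3421203 were above 0 in place of below.

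Among members detected on both arrays, the largest differences belonged to probes not named here. A_33_P3325558 had 8.08 at 0 h and 12.23 at 2 h, and A_33_P3239347 had 10.17 and 14.06. A_32_P800799 went from 12.004 to 6.36 and A_33_P3322395 from 9.38 to 5.38. Each had a single spot, so that no second spot bears on these 4 values.

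Few members could be placed in the genome. Of the 35116 RefSeq windows from 250 bases before to 50 after a gene start, some held the whole 60 bases of 132 members. In the sense direction were 67 members, 22 of them on both arrays with a median difference of -0.51, and antisense were also 67, 32 of them on both arrays with a median of -0.49. Their median GC share was 51.7% in either direction. Sense probes were detected in 34.3% at 0 h and 49.3% at 2 h, antisense ones in 47.8% and 64.2%.
FOXA1 (A_33_P3332997): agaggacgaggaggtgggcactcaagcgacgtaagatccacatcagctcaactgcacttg
HSPB1 (A_33_P3353242): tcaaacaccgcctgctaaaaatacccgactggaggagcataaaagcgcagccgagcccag

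FOXA1 is the pioneer factor of androgen receptor binding in luminal prostate cells and the only marker of that lineage among the lists used that a member could be tied to. Its probe lay at chr14:37595256-37595315 (GRCh38.p14, minus strand), 66 to 7 bases before the annotated start and in the direction of the gene. It had 8.48 at 0 h and 8.90 at 2 h. The probe before the start of HSPB1, a small heat shock protein, lay at chr7:76302607-76302666 on the plus strand and went from 8.70 to 7.63. KLF6, an early response gene, had a probe across its start that was detected on neither array. Of the other windows with a single match, that of RNF44 went from 7.11 to 5.45, LOC124902627 from 10.48 to 8.88, LOC124901638 from 11.05 to 12.12, CRABP2, a retinoic acid carrier, from 9.16 to 9.52, and ACTR3, a subunit of the Arp2/3 actin complex, from 8.27 to 8.51. Each of these but LOC124901638 had a single spot. A signal at a probe before an annotated start says only that RNA with these letters was labelled.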

How the data were processed

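LNCaP cRNA labelled with Cy3 was hybridized to 1 array each for 0 h and 2 h of 10 nM DHT. Per the labels, Agilent Feature Extraction 10.7.1.1 made the spot files. Their intensity values are the processed signal as deposited, background-subtracted by the scanner software on a linear scale, with mean and background signals beside it. A second file that the authors deposited holds log2 values per probe. Its centring is not given in the sources used here. Its medians were 4.43 on both arrays, and its differences correlated with those used here with r = 1.00 across members on both arrays, so that its direction is 2 h over 0 h. Per the methods of the study, the raw data were quantile normalized in the course of a GeneSpring analysis, which is why that step was also chosen here. The table was used as an alternative. Both arrays were on 1 slide.

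Here log2 intensities of all non-control spots were quantile normalized (equal to limma's result, version 3.58.1, R 4.3.3, and tested on simulated data), outlier-flagged spots were left out, and spots of a probe were averaged with Python 3.11.15, numpy 2.4.6, pandas 2.3.3 and scipy 1.17.1. Detection needed both flags in at least a share of 0.5 of the spots. A change was 2-fold, with no test, since each condition was 1 array. The number of arrays limits the precision. Quantile normalization gives both arrays the same distribution, so that a shift of all RNAs would not be seen.

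Members and lists were chosen with earlier results of these data known. Names could be taken from the study's list, of which part is named, from 1 entry of its list of largest changes, and from the 10 largest rises and 10 falls among the 37 members on both arrays tied to a gene by those lists or by 1 sense RefSeq window (GRCh38.p14). Protein sequences were not used here, so that of 15 gene lists only FOXA1, HSPB1 and KLF6 were tied to a member. Luminal markers other than FOXA1, and markers of basal, stromal, immune, endothelial and neuroendocrine cells, could not be looked up by gene. Sequences are from the array files. Some members that this rule covers, 1 of the 10 rises included, are not reported here singly, though the counts include them. Spike-in, 75th percentile, median and no scaling, normexp (offset 50), other filters and thresholds were alternatives. Lower bounds, GC-matched medians, leaving out AATAAA and another AT-rich class were added after seeing the data.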

Additional observations from a re-analysis of the deposited data

How the results depend on the processing

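No paired analysis was possible because each condition was 1 array, and no array could be left out. With the positive and significant flag alone, 54.6% of member spots at 0 h and 73.2% at 2 h were detected. The 2994 higher members became 8072 with the spike-in shift, 6971 without scaling and 994 with normexp. They became 830 with detection on both arrays, 1752 at 3-fold and 1603 by lower bounds. Under the first 3 alternatives, the 9054 higher probes of the whole array became 24528, 21049 and 2988. Under the same 3, the 1216 lower members became 25, 50 and 454, and the 4457 lower probes of the array 53, 138 and 1492. The lower members were 301 at 3-fold and 2174 with no detection filter. With scaling on the 75th percentile of every spot they were 2485, beside 8090 of all array probes. With that percentile scaling the medians of A_24_P, A_32_P and A_33_P were 0.14, 0.15 and -0.22, with the 75th percentile of spots above background 0.69, 0.70 and 0.33, with the spike-ins 2.16, 2.17 and 1.80, without scaling 1.78, 1.80 and 1.42, with no detection filter 0.078, 0.045 and -0.025, and with detection on both arrays -0.0089, 0.15 and -0.34. Normexp gave 0.26 and 0.30 for the first pair of classes, and the GC-matched medians 0.20 and 0.22. For A_33_P the median shift gave 0.18 and the authors' values -0.014. The GC contrast of -0.58 was -1.17 under every constant shift and without scaling, -0.85 between the ends of the GC range cut at 35% and 48.3% and -0.91 with 35 to below 40% GC as the AT-rich class. Its sign turned with GC-matched medians, which subtract the trend of the other classes by construction and left -0.24 below 35% GC and 0.06 at 60% or more. The causes were not tested. A constant shift moves every median by the same amount. Reversed with the spike-in shift were LOC340357 (0.80), LOC728752 (0.74), A_33_P3421203 of FLJ10661 (0.62), DSCR9 (0.51), FLJ42392 (0.49), WWTR1-AS1 (0.47), LOC645249 (0.45), MEG3 (0.39) and KIRREL3-AS3 (0.18), and without scaling the same probes but KIRREL3-AS3, at 0.43, 0.37, 0.25, 0.14, 0.12, 0.10, 0.075 and 0.021 in the order LOC340357, LOC728752, A_33_P3421203, DSCR9, FLJ42392, WWTR1-AS1, LOC645249 and MEG3. The other 36 alternatives of the 8 main results stayed within 1.5 times the count, the interval of the share or the spot spread of 0.12. Signal over background limits the dim probes, whose 0 h level is only a bound.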

Other observations

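A single member, A_33_P3286621, lay wholly within a microRNA hairpin in the sense direction, that of MIR6516 at chr17:77089417-77089497 (GRCh38.p14, plus strand). It had 7.73 at 0 h and 7.66 at 2 h. A_33_P3423250, antisense to the MIR431 hairpin at chr14:100881007-100881120, was detected on neither array. The probe in the window of SAPCD1 was listed at 3.20 at 0 h and had 6.04 at 2 h, where alone it was detected. Antisense to the starts of RNF10 and PCIF1, A_33_P3213512 went from 8.53 to 6.73 and A_33_P3303031, among the 10 brightest members, from 18.69 to 18.25. These probes were chosen after their values were seen.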
